A study of Mus musculus with 4 samples.

Results

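The 37 genes described here are the cyclins, the cyclin-dependent kinases (CDKs) they switch on, the CDK inhibitors, the Rb family, the E2F factors and direct regulators of the kinases. They were taken as a list of gene symbols, in which the CDK inhibitor Cdkn1a is absent. Each symbol of the list had 1 row among the 23746 gene rows of the expression tables. Expression was measured in 4 primary mammary tumors of female mice, 2 labelled WapCre;Rank;Brca1;p53 (triple-mutant, tumors 26043 and 26044) and 2 labelled WapCre;Brca1;p53 (double-mutant, tumors 26048 and 26050). In all 4 the WapCre transgene, active in luminal and basal mammary epithelium, deletes floxed Brca1 and p53, and the genotypes differ in whether floxed Rank, the receptor of RANKL, is deleted as well. Cells of the tumor that do not express the transgene keep these alleles, and the age of the mice is not given. Mice of the 2 genotypes are described as littermates, without saying which tumors share a litter, and the triple-mutant mice of this model had no high-grade tumors, whereas double-mutant mice had both high-grade and intermediate-grade ones and the grade of tumors 26048 and 26050 is not given.

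D-type cyclins pair with Cdk4 and Cdk6 when growth signals arrive, and these kinases begin to phosphorylate the Rb proteins. Rb proteins that are not phosphorylated hold E2F factors, so phosphorylation frees E2F to switch on genes of DNA replication, among them the E cyclins that act with Cdk2, and later the A and B cyclins that act with Cdk2 and Cdk1. The Ink4 proteins encoded by the Cdkn2 genes block Cdk4 and Cdk6, and the Cdkn1 proteins bind a wider set of cyclin-kinase pairs. Cdkn2a also encodes p19Arf, which is not an Ink4 protein. In the mammary gland cyclin D1 is known as the D cyclin needed for alveolar growth.

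Values are FPKM, fragments scaled to transcript length and to the size of the library, as estimated by the authors with Cufflinks, so that levels of different genes may be compared per length. The number of reads behind each tumor is unknown, and the half-width of the confidence interval Cufflinks gives was 6.82% to 7.53% of its midpoint for the median member, which covers the measurement of a tumor and not the spread between tumors. In 15 to 19 of the 37 members per tumor the FPKM lay outside that interval, so the interval midpoint was tried in its place. Rank itself (Tnfrsf11a) had 2.07 and 0.96 FPKM in the triple-mutant and 10.6 and 11.9 FPKM in the double-mutant tumors. Basal epithelial markers were higher in both triple-mutant tumors for the 7 genes tested of an 8-gene list, beside 21.3% of all genes tested. The list summed to 1315 to 1751 FPKM against 47.6 to 70.4 FPKM. Acta2 alone had 898 FPKM in tumor 26044, and had 64.8 FPKM in tumor 26043 and 59.7 FPKM in tumor 26048. Krt5 and Krt14 were at 596 and 611 FPKM in tumor 26043 but at 114 and 42.5 FPKM in tumor 26044. Luminal markers summed to 443 FPKM in tumor 26044 and to 2100 to 2979 FPKM in the others. Of the 10 luminal genes, 3 (30%) were higher in both triple-mutant and 4 (40%) in both double-mutant tumors. Krt19, one of the 3, had 1154 and 194 FPKM in triple-mutant and 139 and 56.7 FPKM in double-mutant tumors. Of the 7 fibroblast genes, 5 (71.4%) were higher in both double-mutant tumors and 1 (14.3%) the other way, beside 22.9% and 21.3% of all genes tested. That list summed to 112 to 196 FPKM in triple-mutant and 432 to 889 FPKM in double-mutant tumors. Of the 7 myeloid genes the counts were 5 (71.4%) and 0, and the list summed to 158 to 241 and 345 to 571 FPKM. Adipocyte markers summed to 1399 FPKM in tumor 26048 against 8.002 to 262 FPKM elsewhere, and the lists of endothelium, T and B cells, skeletal muscle and erythrocytes summed to at most 83.8 FPKM in any tumor. No gene of these marker lists was at 0 in all 4 tumors. In bulk tissue fewer cells of a type and less RNA per cell cannot be told apart, and the part of these cell types in the results below was not tested.

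**Figure D1:**
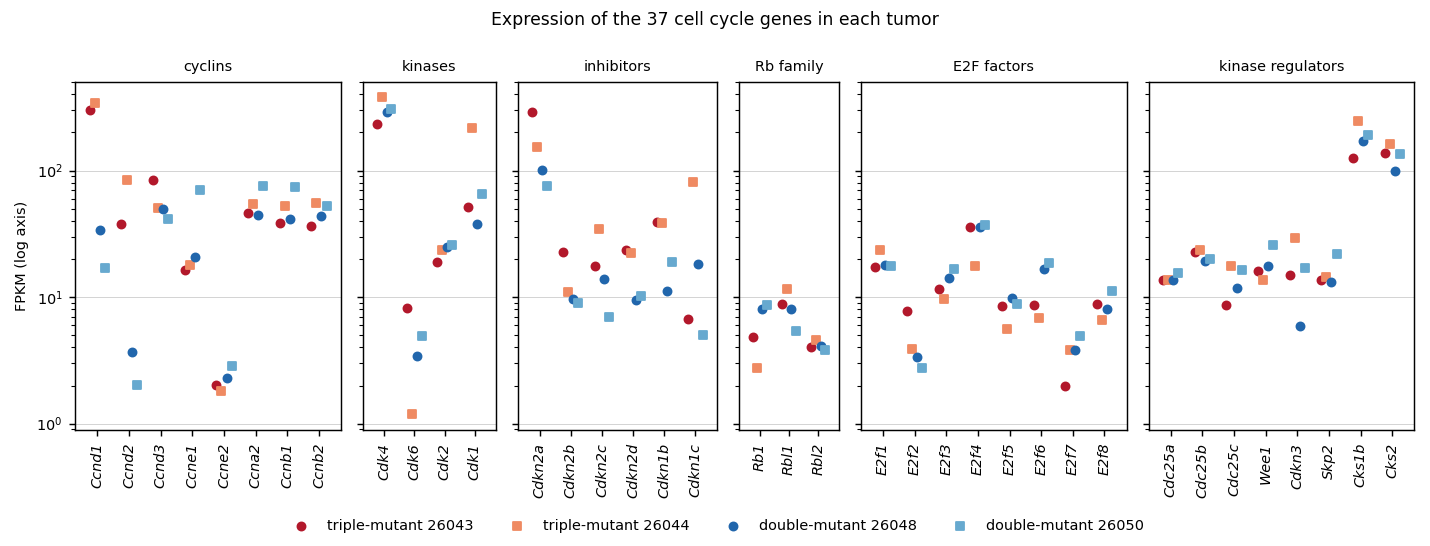
FPKM of each of the 37 genes on a log axis, with 1 point per tumor, in red and orange for triple-mutant and in dark and light blue for double-mutant tumors. Ccnd1 and Ccnd2 show the widest gap between the genotypes, and Cdk1 and Cdkn1c stand high in triple-mutant tumor 26044 alone.

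All 37 genes passed the filter of 1 FPKM in 2 tumors, and their levels ran from 1.19 FPKM for Cdk6 in tumor 26044 to 379 FPKM for Cdk4 in the same tumor. In the comparison of triple-mutant with double-mutant tumors by limma on log2(FPKM + 1), fitted over 12752 genes, 0 of the 37 genes had an adjusted p under 0.05, and the background over all genes was 0.0%. At an unadjusted p under 0.05 limma gave 7 of the 37 genes (18.9%), namely Ccnd1, Ccnd2, Cdkn2a, Cdkn2d, Cdkn1b, Rb1 and E2f6, against 9.82% of all genes tested. Both triple-mutant tumors lay above both double-mutant tumors in 12 of the 37 genes (32.4%), against 21.3% of all genes tested. The opposite held in 10 of the 37 (27.0%), against 22.9% of all genes. With a difference of at least 1 log2 unit as well, 6 genes remained on the triple-mutant side (16.2%, background 7.3%) and 2 on the double-mutant side (5.41%, background 4.65%). Rb1, at -1.0 after rounding, fell just short of that limit. The median log2 fold change was -0.04 over the 37 genes and -0.02 over all genes tested. By group, the median was 1.23 for the inhibitors, -0.14 for the cyclins, -0.09 for the kinases, 0.09 for the Rb family, -0.44 for the E2F factors and -0.07 for the kinase regulators. Each log2 fold change is a difference of log2(FPKM + 1), triple-mutant minus double-mutant, which understates the change of low genes, and its standard error (SE) and 95% interval come from limma with 2 tumors per genotype.

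**Figure D2:**
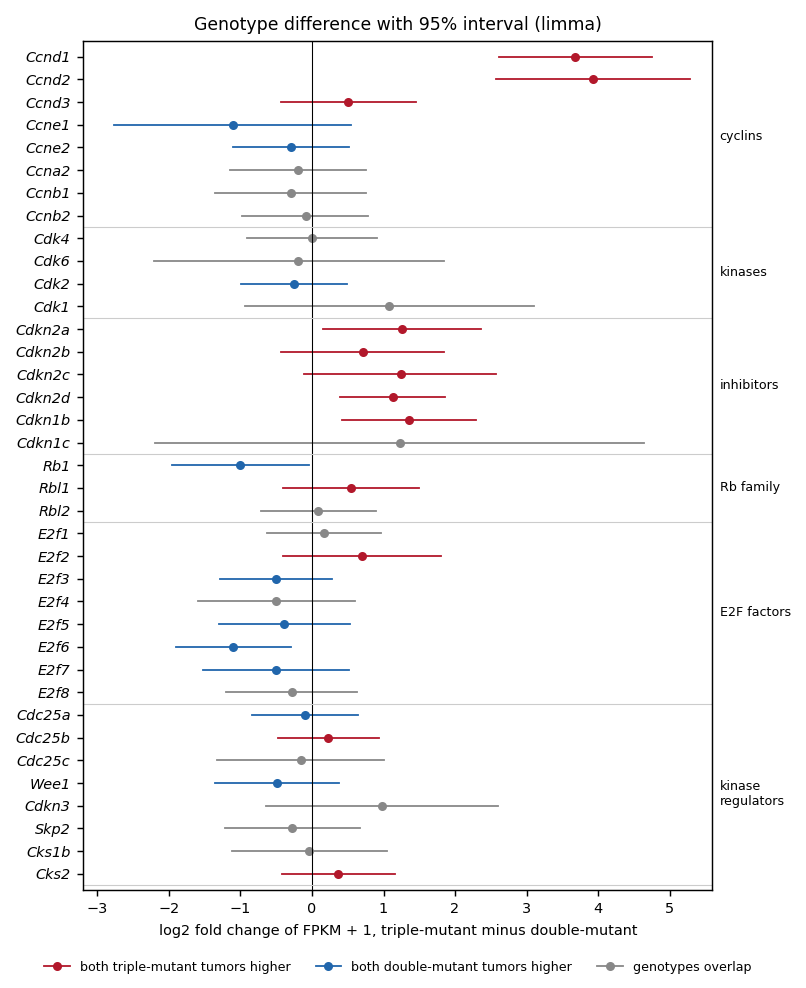
Log2 fold change of FPKM + 1 between triple-mutant and double-mutant tumors for each gene, with the 95% interval from limma (n = 2 tumors per genotype). The intervals of Ccnd1 and Ccnd2 lie farthest from 0, 5 of the 6 inhibitors are separated upward in the triple-mutant tumors, while the intervals of the kinases, A and B cyclins and kinase regulators span 0.

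Of the 37 genes, Ccnd2 and Ccnd1 had the largest log2 fold changes. Ccnd1 (cyclin D1, chromosome 7 from 144929931 to 144939925) had 302 and 342 FPKM in triple-mutant tumors 26043 and 26044, and 34.0 and 17.0 FPKM in double-mutant tumors 26048 and 26050. The genotypes lay far apart, and the triple-mutant tumors were near the level of the most abundant kinase gene of the set, Cdk4. With the interval midpoint, however, Ccnd1 was above Cdk4 in both triple-mutant tumors (306 and 347 against 169 and 271 FPKM). The fold between the means was 12.6, and the log2 fold change 3.68 (SE 0.41, adjusted p = 0.167 from limma, 95% interval 2.61 to 4.76). Ccnd2 (cyclin D2, chromosome 6 from 127125709 to 127151048) had 37.7 and 84.6 FPKM in triple-mutant and 3.71 and 2.03 FPKM in double-mutant tumors. Here too the genotypes did not overlap, though the triple-mutant tumors differed more from each other than for Ccnd1. The fold between the means was 21.3 and the log2 fold change 3.93 (SE 0.51, adjusted p = 0.181 from limma, 95% interval 2.57 to 5.29). Ccnd3 (cyclin D3) had 83.7 and 50.2 FPKM in triple-mutant tumors compared with 49.5 and 41.6 FPKM in double-mutant tumors, so that tumors 26044 and 26048 were nearly level, and with the interval midpoint tumor 26048 was the higher of them (29.65 and 26.80 FPKM), and the log2 fold change was 0.51 (95% interval -0.44 to 1.45).

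Cyclin D1 took a larger share of the D cyclins in both triple-mutant tumors. Ccnd1 made up 71.3% and 71.7% of the summed FPKM of the family in the triple-mutant tumors, whereas its share in the double-mutant tumors was 38.9% and 28.1%. The difference of the means was 38.0 percentage points (two-sided exact permutation test, p = 0.3333, which is as small as this design can give). Ccnd3 led in the double-mutant tumors, with 56.8% and 68.6% of the family, and made up 19.8% and 10.5% in the triple-mutant tumors. With the midpoint of the Cufflinks interval in place of the FPKM, however, Ccnd1 was above Ccnd3 in tumor 26048 (34.03 and 29.65 FPKM), and the difference of the mean shares of Ccnd1 was 31.0 percentage points. Ccnd2 was the least abundant D cyclin in 3 tumors and the second in tumor 26044, with 17.7% of the family there. The family as a whole summed to 423 and 477 FPKM in triple-mutant and to 87.2 and 60.7 FPKM in double-mutant tumors. The D cyclins overlap other rows of the tables, Ccnd1 that of Mir3962, Ccnd2 that of 9330179D12Rik and Ccnd3 that of Bysl. Whether strand was used in the FPKM estimate is not given in the sources used here, and Ccnd3 has a processed pseudogene, Ccnd3-ps, in the GENCODE M21 annotation.

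**Figure D3:**
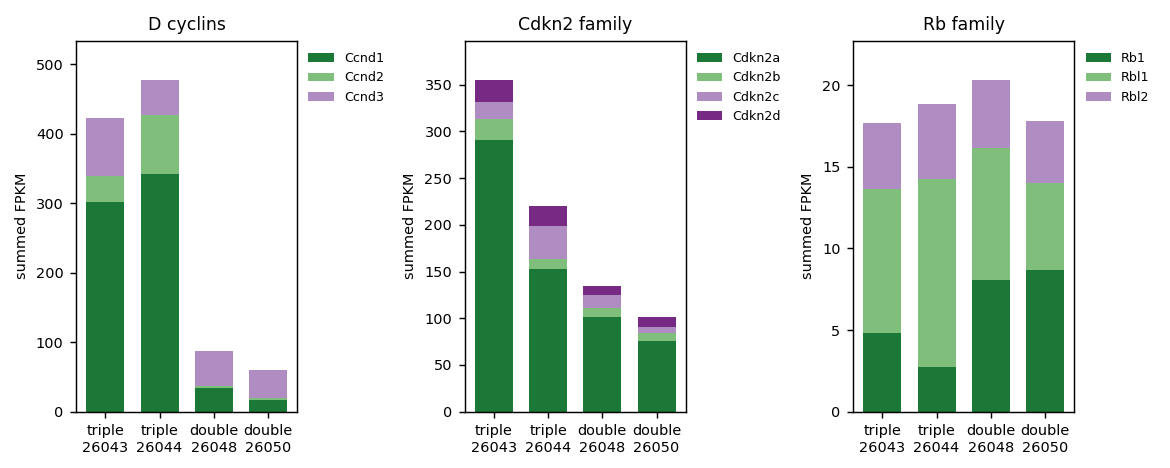
Summed FPKM of the D cyclins, the Cdkn2 family and the Rb family in each tumor, stacked by gene. The D cyclin bars are tall and mostly Ccnd1 in the triple-mutant tumors and short and mostly Ccnd3 in the double-mutant tumors (with the interval midpoint mostly so in tumor 26050 alone), the Cdkn2 bars are Cdkn2a for the most part in every tumor, and the Rb bars are of like height with less Rb1 in the triple-mutant tumors.

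The E cyclins, which act with Cdk2 at the start of DNA replication, are encoded by Ccne1 and Ccne2, and only the separation of Ccne1 held with the interval midpoint as value. Ccne1 had 16.3 and 17.9 FPKM in triple-mutant and 20.6 and 69.8 FPKM in double-mutant tumors. Tumor 26050 stood apart, and tumor 26048 was close to the triple-mutant tumors. The log2 fold change of Ccne1 was -1.11 (SE 0.63, adjusted p = 0.601 from limma), -0.26 without tumor 26050 and -1.97 without tumor 26048. Ccne2 had 2.03 and 1.80 FPKM against 2.30 and 2.86 FPKM, with a log2 fold change of -0.29, and with the interval midpoint its genotypes overlapped and the log2 fold change was -0.06. Its row overlaps that of Ints8. The A and B cyclins of S phase and mitosis overlapped between the genotypes, with tumor 26050 highest for Ccna2 (75.2 FPKM, 44.3 to 54.5 in the others) and Ccnb1 (74.3 FPKM, 38.4 to 52.7 in the others). Ccnb2 ran from 36.2 FPKM in tumor 26043 to 55.6 FPKM in tumor 26044, so both ends of its range were triple-mutant. Log2 fold changes were -0.20 for Ccna2 (95% interval -1.15 to 0.76), -0.30 for Ccnb1 (-1.35 to 0.75) and -0.09 for Ccnb2 (-0.98 to 0.79). The intervals of Ccna2 and Ccnb1 thus still contained a difference of -1. Ccnb1 and Ccnb2 have processed pseudogenes in the annotation, and the row of Ccna2 overlaps that of Exosc9.

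Among the 4 kinases 0 were higher in both triple-mutant tumors (21.3% of all genes) and 1, Cdk2, was higher in both double-mutant tumors (22.9% of all genes). Cdk4 (chromosome 10 from 127063603 to 127067282) had 233 and 379 FPKM in triple-mutant and 289 and 305 FPKM in double-mutant tumors, which placed both double-mutant tumors between the triple-mutant ones, and the 95% interval of its log2 fold change ran from -0.91 to 0.91. Cdk6, the other partner of the D cyclins, was far lower, with 8.25 and 1.19 FPKM in triple-mutant and 3.42 and 4.93 FPKM in double-mutant tumors. Cdk4 thus made up 96.6% to 99.7% of the summed FPKM of the pair in every tumor. Per FPKM of Cdk4 and Cdk6 there were 1.75 and 1.26 FPKM of D cyclins in the triple-mutant and 0.30 and 0.20 in the double-mutant tumors. With the interval midpoint Cdk4 was lower in every tumor (169.2 and 271.4 FPKM in triple-mutant, 223.8 and 228.5 FPKM in double-mutant), and these ratios were not recomputed with it. Cdk2 had 19.1 and 23.4 FPKM in triple-mutant tumors compared with 24.9 and 25.6 FPKM in double-mutant tumors, a narrow separation with a log2 fold change of -0.25.

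Cdk1, the kinase of mitotic entry, varied more between tumors than its cyclins. Its FPKM was 51.8 in tumor 26043, 216 in tumor 26044, 37.6 in tumor 26048 and 65.3 in tumor 26050. Tumor 26044 stood apart and the other triple-mutant tumor lay between the double-mutant ones. The log2 fold change was 1.08 (SE 0.76, adjusted p = 0.661 from limma), 0.06 without tumor 26044 and 2.1 without tumor 26043. In the same tumor Ccna2, Ccnb1 and Ccnb2, the partners of Cdk1, were at 54.5, 52.7 and 55.6 FPKM.

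Both triple-mutant tumors were the higher ones for 5 of the 6 inhibitors of the set, which does not hold Cdkn1a, and both double-mutant tumors for 0 of them. The shares over all genes tested were 21.3% and 22.9%. Cdkn2a, which encodes p16Ink4a and p19Arf from separate first exons, was the most abundant, with 291 and 153 FPKM in triple-mutant and 101 and 75.2 FPKM in double-mutant tumors. The log2 fold change was 1.26 (SE 0.42, adjusted p = 0.485 from limma, 95% interval 0.16 to 2.37), and 0.80 without tumor 26043. The genotypes did not overlap, but the gap between tumors 26044 and 26048 was smaller than that between the triple-mutant tumors. Its neighbour Cdkn2b (p15Ink4b) had 22.8 and 11.02 FPKM against 9.72 and 8.97 FPKM, and a log2 fold change of 0.71 that was 0.22 without tumor 26043. Cdkn2c (p18Ink4c) had 17.7 and 34.6 FPKM against 13.96 and 6.99 FPKM (log2 fold change 1.24, SE 0.51, 95% interval -0.11 to 2.58), and the log2 fold change was 0.77 without tumor 26044 and 0.78 without tumor 26050. Cdkn2d (p19Ink4d) was the most even within genotypes, with 23.5 and 22.1 FPKM against 9.56 and 10.3 FPKM. Its log2 fold change of 1.13 (SE 0.28, adjusted p = 0.409 from limma, 95% interval 0.39 to 1.86) stayed between 1.03 and 1.20 under every alternative tried.

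The Cdkn2 family summed to 354 and 220 FPKM in triple-mutant and 134 and 101 FPKM in double-mutant tumors, and Cdkn2a made up 69.3% to 81.9% of that sum in every tumor. The D cyclins lay above the Cdkn2 family in the triple-mutant tumors, with ratios of summed FPKM of 1.19 and 2.16, and below it in the double-mutant tumors, with 0.65 and 0.60. Both families were higher in the triple-mutant tumors, the D cyclins by the larger margin. The row of Cdkn2a adds transcripts of p16Ink4a and p19Arf, and the part of each was not tested. The ratios therefore do not compare D cyclins with Ink4 transcripts alone.

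Cdkn1b (p27Kip1, chromosome 6 from 134920401 to 134925525), which binds Cdk2 complexes and also assembles with D cyclins, had 39.1 and 38.5 FPKM in triple-mutant and 11.1 and 18.9 FPKM in double-mutant tumors. The triple-mutant tumors were nearly equal and both lay above the double-mutant tumors, with a log2 fold change of 1.36 (SE 0.35, adjusted p = 0.438 from limma, 95% interval 0.42 to 2.30). With the interval midpoint the triple-mutant tumors were less alike, at 44.84 and 58.41 FPKM against 12.35 and 21.97 FPKM, with a log2 fold change of 1.58. Cdkn1c (p57Kip2), an imprinted gene, was the exception of the group, with 6.69 FPKM in tumor 26043, 80.9 in tumor 26044, 18.2 in tumor 26048 and 4.98 in tumor 26050. The genotypes overlapped, and the log2 fold change of 1.23 (SE 1.29) became -0.48 without tumor 26044 and 2.93 without tumor 26043.

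Promoter sequences are printed to show the motifs beside the start sites of the inhibitors and, for contrast, of a mitotic kinase gene. The windows are the 250 bases before the start site, from RefSeq on GRCm38.p6, read 5′ to 3′ on the strand of the gene. They are given for the 3 inhibitors whose interval left out 0, with both start sites of Cdkn2a, and for Cdk1, and capitals mark matches on either strand to 3 motifs. The motifs were an E2F motif (TTTCCCGC, TTTGGCGC, TTTGCCGC or TTTCGCGC), the cell cycle homology region or CHR (TTTGAA), and CCAAT. None of these spellings contains another.
Cdkn2a, upstream start site, chr4:89294620-89294869, minus strand: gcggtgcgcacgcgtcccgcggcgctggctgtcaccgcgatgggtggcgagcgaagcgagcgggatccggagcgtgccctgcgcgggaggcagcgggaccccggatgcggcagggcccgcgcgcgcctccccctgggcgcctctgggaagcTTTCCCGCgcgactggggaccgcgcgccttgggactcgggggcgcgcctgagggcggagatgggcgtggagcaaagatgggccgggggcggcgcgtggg
Cdkn2a, downstream start site, chr4:89282193-89282442, minus strand: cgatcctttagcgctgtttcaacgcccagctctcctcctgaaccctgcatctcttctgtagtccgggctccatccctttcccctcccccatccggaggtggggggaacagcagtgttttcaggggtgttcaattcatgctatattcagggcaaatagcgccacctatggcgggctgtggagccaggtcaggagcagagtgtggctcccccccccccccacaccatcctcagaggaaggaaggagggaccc
Cdkn2d, chr9:21291210-21291459, minus strand: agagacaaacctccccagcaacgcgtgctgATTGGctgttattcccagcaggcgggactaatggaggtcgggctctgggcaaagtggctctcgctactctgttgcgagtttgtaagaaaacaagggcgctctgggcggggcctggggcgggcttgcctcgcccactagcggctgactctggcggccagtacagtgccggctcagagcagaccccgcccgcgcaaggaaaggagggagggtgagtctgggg
Cdkn1b, chr6:134920151-134920400, plus strand: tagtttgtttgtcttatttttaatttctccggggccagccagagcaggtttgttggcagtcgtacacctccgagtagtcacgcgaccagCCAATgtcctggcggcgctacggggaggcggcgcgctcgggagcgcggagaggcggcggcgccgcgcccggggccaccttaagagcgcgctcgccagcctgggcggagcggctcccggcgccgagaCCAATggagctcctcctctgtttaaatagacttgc
Cdk1, chr10:69352913-69353162, minus strand: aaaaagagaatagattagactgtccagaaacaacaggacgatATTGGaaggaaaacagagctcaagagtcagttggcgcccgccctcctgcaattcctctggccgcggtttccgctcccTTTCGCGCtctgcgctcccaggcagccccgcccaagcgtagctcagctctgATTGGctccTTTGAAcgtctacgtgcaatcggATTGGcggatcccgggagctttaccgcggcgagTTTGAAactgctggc

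The upstream start site of Cdkn2a, that of p19Arf, held 1 E2F match, and the downstream start site, that of p16Ink4a, held no match to any of the 3 motifs. The FPKM row of Cdkn2a adds transcripts of both, so which of them differed between genotypes was not tested. The Cdkn1b window held 2 CCAAT matches and that of Cdkn2d held 1, and both had no E2F or CHR match. The Cdk1 window held 1 E2F, 2 CHR and 3 CCAAT matches. RefSeq windows were matched for 27 of the 37 genes, 33 start sites in all. An E2F match stood in 21.2% of these 33 windows against 1.86% of 32851 windows of the same length over all genes, a CHR match in 30.3% against 16%, and CCAAT in 54.5% against 33.8%. Among the 7 windows of inhibitors the counts were 1 with E2F, 1 with CHR and 2 with CCAAT, and among the 7 windows of kinase regulators they were 1, 3 and 6. A match is a description of letters and not evidence of binding.

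The summed level of the Rb family overlapped between the genotypes, but the share of Rb1 was lower in both triple-mutant tumors. Rb1 (the retinoblastoma protein, chromosome 14 from 73195502 to 73325791) had 4.82 and 2.76 FPKM in triple-mutant and 8.05 and 8.67 FPKM in double-mutant tumors. The genotypes did not overlap, and the log2 fold change was -1.0 (SE 0.36, adjusted p = 0.507 from limma, 95% interval -1.96 to -0.04). The row of Rb1 overlaps those of Lpar6 and Mir687. Rbl1 (p107), itself an E2F target gene, went the other way, with 8.84 and 11.5 FPKM against 8.11 and 5.35 FPKM and a log2 fold change of 0.55 (95% interval -0.40 to 1.49). Rbl2 (p130), the member typical of quiescent cells, had 4.01 and 4.58 FPKM against 4.13 and 3.81 FPKM, and its row overlaps that of Aktip. The family summed to 17.7 and 18.9 FPKM in triple-mutant and 20.3 and 17.8 FPKM in double-mutant tumors. Of this sum Rb1 made up 27.3% and 14.7% in the triple-mutant and 39.7% and 48.6% in the double-mutant tumors.

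Among the E2F factors, the activators E2f1, E2f2 and E2f3 summed to nearly the same level in all tumors, 35.5 to 36.99 FPKM. E2f1 had 17.2 and 23.4 FPKM in triple-mutant and 17.8 and 17.6 FPKM in double-mutant tumors, with a 95% interval of the log2 fold change from -0.63 to 0.97. E2f2 was higher in both triple-mutant tumors (7.81 and 3.90 against 3.39 and 2.73 FPKM) and E2f3 in both double-mutant tumors (11.5 and 9.69 against 14.2 and 16.6 FPKM), with log2 fold changes of 0.70 and -0.50 and intervals that span 0. The other 5 factors, which act mainly as repressors, summed to 64.1 and 40.6 FPKM in triple-mutant and 74.1 and 80.7 FPKM in double-mutant tumors. E2f6, a repressor that does not bind Rb proteins, had the largest difference among the E2F factors, with 8.62 and 6.86 FPKM in triple-mutant and 16.7 and 18.6 FPKM in double-mutant tumors. Its log2 fold change was -1.10 (SE 0.30, adjusted p = 0.453 from limma, 95% interval -1.90 to -0.30), and each tumor was close to the other of its genotype. E2f4, a partner of Rbl2 and the most abundant E2F in 3 tumors, was at 36.1, 35.6 and 37.1 FPKM in tumors 26043, 26048 and 26050 and at 17.8 FPKM in tumor 26044, where E2f1 led. Its log2 fold change of -0.50 became -0.01 without tumor 26044. E2f5, E2f7 and E2f8 had log2 fold changes of -0.39, -0.50 and -0.28, and E2f5 and E2f7 were higher in both double-mutant tumors by small margins. With the interval midpoint E2f5 and E2f7 overlapped, while E2f4 was separated by a small margin. The row of E2f5 overlaps that of 1810022K09Rik.

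Of the 8 regulators of the kinases, 2 were higher in both triple-mutant tumors and 2 in both double-mutant tumors, or 25% each, near the 21.3% and 22.9% of all genes tested. The largest log2 fold change was 0.98. That was Cdkn3, a phosphatase that acts on Cdk1 and Cdk2, with 15.0 and 29.3 FPKM in triple-mutant and 5.93 and 16.9 FPKM in double-mutant tumors, so the genotypes overlapped, and it ran from 0.29 without tumor 26048 to 1.67 without tumor 26050. The Cdc25 phosphatases remove the inhibitory phosphate from the kinases. Cdc25a was at 13.6 to 13.7 FPKM in 3 tumors and at 15.6 FPKM in tumor 26050, so its separation rested on a difference within rounding between tumors 26043 and 26048 and was lost with the interval midpoint. Cdc25b had 22.7 and 23.6 FPKM against 19.2 and 20.2 FPKM, with a row that overlaps that of Mir3098, and Cdc25c ranged from 8.59 FPKM in tumor 26043 to 17.5 FPKM in tumor 26044. Wee1, the kinase that adds the inhibitory phosphate, had 16.1 and 13.7 FPKM in triple-mutant and 17.6 and 25.7 FPKM in double-mutant tumors (log2 fold change -0.49, 95% interval -1.36 to 0.38). Skp2, the subunit of the ubiquitin ligase that marks p27 for degradation, was at 13.3 to 14.3 FPKM in 3 tumors and at 22.0 FPKM in tumor 26050. The kinase-binding subunits Cks1b and Cks2 were the most abundant regulators, at 125 to 247 and 98.8 to 163 FPKM, and their log2 fold changes were -0.04 and 0.37, with intervals that span 0.

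The spread between tumors of 1 genotype bounds all of these comparisons. The median absolute difference over the 37 genes was 0.45 log2 units between the triple-mutant tumors and 0.29 between the double-mutant tumors, and 0.37 to 0.64 between tumors of different genotype. The smallest of the latter, that of tumors 26043 and 26048, was below the difference within the triple-mutant pair. Over all genes tested these pairs had the same values, 0.37 and 0.45. Tumor 26044 was highest in 15 of the 37 genes and tumor 26050 in 14, while tumor 26048 was highest in 1. When single tumors were omitted, the log2 fold change of 8 genes (Ccnd1, Ccnd2, Cdkn2d, Cdkn1b, Rb1, E2f3, E2f6 and Cdc25b) stayed within 1.5 times its value, and that of the other 29 moved farther or turned. Tumor 26050 was the highest in Ccne1, Ccne2, Ccna2, Ccnb1, Wee1 and Skp2, and tumor 26044 in Ccnd1, Ccnd2, Cdk1, Cdk4, Cdkn1c, Cdkn2c and Cdkn3.

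**Figure D4:**
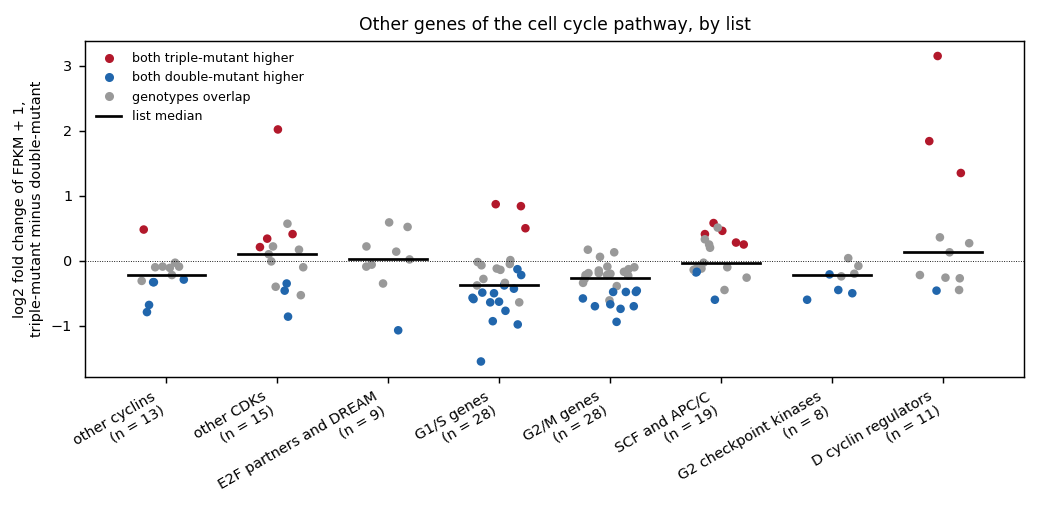
Log2 fold change of FPKM + 1 between triple-mutant and double-mutant tumors for further genes of the cell cycle, in 8 lists, with 1 point per gene (red where both triple-mutant and blue where both double-mutant tumors are higher, grey where the genotypes overlap) and a bar at the list median. Points of the lists of G1/S and G2/M genes lie mostly below 0. In the list labelled D cyclin regulators, 3 genes, which are targets of Notch or Wnt signaling, lie above 1, as does Cdk19.

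Further genes of the pathway were read from 8 lists, and 0 genes of these lists passed the adjusted threshold of limma. The counts of separated genes stand beside 22.9% of all genes tested that were higher in both double-mutant tumors and 21.3% that were higher in both triple-mutant tumors. They include genes with small gaps between the genotypes and were not recomputed with the interval midpoint. Of 28 G1/S genes, whose products copy DNA and supply nucleotides, 15 (53.6%) were higher in both double-mutant and 3 (10.7%) in both triple-mutant tumors, with a median log2 fold change of -0.38, beside -0.02 over all genes. Rrm2, a subunit of ribonucleotide reductase, had the largest difference, with 39.7 and 27.4 FPKM in triple-mutant and 64.6 and 150 FPKM in double-mutant tumors. Mcm5 and Mcm6 of the replicative helicase followed with log2 fold changes of -0.98 and -0.93, whereas Cdc7, Cdca7 and Mcm7 were higher in both triple-mutant tumors, by 0.87, 0.84 and 0.50 log2 units. Of 28 G2/M genes 10 (35.7%) were higher in both double-mutant and 0 in both triple-mutant tumors, with a median of -0.26. The proliferation marker Mki67 had 22.5 and 25.1 FPKM in triple-mutant and 39.9 and 38.5 FPKM in double-mutant tumors (log2 fold change -0.70, SE 0.26, adjusted p = 0.508 from limma), and Cdca8 and Hmmr had -0.94 and -0.74. The summed level of the G1/S list was 854 to 1115 FPKM in triple-mutant and 1094 to 1435 FPKM in double-mutant tumors, and that of the G2/M list 886 to 1160 and 962 to 1502 FPKM, so the sums overlapped.

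Of the genes listed as E2F partners, DREAM complex members and related factors, 9 were tested. Lin9 alone (11.1%) was separated, with 5.43 and 5.18 FPKM in triple-mutant and 10.3 and 14.6 FPKM in double-mutant tumors. Of 8 G2 checkpoint kinases and related genes, 4 were higher in both double-mutant and 0 in both triple-mutant tumors, led by Mastl and Chek1 with log2 fold changes of -0.60 and -0.50. Of 13 further cyclins 5 (38.5%) were higher in both double-mutant tumors and Ccng2 was higher in both triple-mutant tumors, and Ccnb3 was listed at 0 in every tumor. Among 15 further CDK genes and their partners 4 were higher in both triple-mutant (26.7%) and 3 in both double-mutant tumors (20%), close to the shares over all genes. Cdk19, a kinase of the Mediator complex, had 24.4 and 83.6 FPKM in triple-mutant and 9.20 and 11.9 FPKM in double-mutant tumors. The 19 genes of the SCF and APC/C ubiquitin ligases divided into 5 (26.3%) and 3 (15.8%), with a median of -0.03. Of 11 genes listed for D cyclin turnover or for Notch or Wnt signaling, 1, Fbxo31, was higher in both double-mutant tumors. Separated upward in the triple-mutant tumors were 3 (27.3%, beside 21.3% of all genes). These 3 were Nrarp and Hes1, targets of Notch, and Axin2, a target of Wnt signaling. Whether any of them acts on the D cyclins in these tumors was not tested. The Notch target Hey1 and the Wnt effector Lef1 of the same list overlapped between the genotypes, with log2 fold changes of -0.26 and -0.45. Nrarp had 20.1 and 54.6 FPKM in triple-mutant tumors compared with 3.603 and 2.21 FPKM in double-mutant tumors, Hes1 had 71.5 and 75.2 against 28.1 and 28.3 FPKM, and Axin2 had 6.49 and 2.86 against 0.95 and 0.15 FPKM. The median of this list was 0.13.

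The tested genes within 500 kb on the chromosome were read for the 8 genes that were separated and differed by at least 1 log2 unit. Rb1, which reached -1.0 only after rounding, was not among them. The 8 neighbours of Ccnd1 had a median log2 fold change of 0.17. Of these, 0 reached the log2 fold change of Ccnd1, though 2 were at 1 or more. With a tumor left out, the median ran from -0.11 (without tumor 26043) to 0.45 (without tumor 26044). The nearest was Oraov1 with 0.53, followed by Fgf15 with 2.53 and Ano1 with -0.75. The 5 neighbours of Ccnd2 ran from -0.20 to 0.80, with a median of -0.01. Around Cdkn1b the median of 14 neighbours was 0.08 (-0.26 to 0.64 with a tumor left out), though Gpr19 had 1.03 and Gprc5a, with 1.80, exceeded Cdkn1b. Around Cdkn2a 2 genes were tested, Cdkn2b with 0.71 and Mtap with -0.34. The medians were -0.37 for 5 neighbours of Cdkn2c, 0.18 for 31 neighbours of Cdkn2d and 0.00 for 4 neighbours of Ccne1. Around E2f6, 5 neighbours had a median of -0.98, beside -1.10 for E2f6 itself. That median ran from -1.0 (without tumor 26044) to -0.41 (without tumor 26048), and was -0.69 within 1 Mb. Of the 5 neighbours 2, Pdia6 with -1.29 and Atp6v1c2 with -3.92, were lower than E2f6. The log2 fold changes of its nearest neighbours were -0.55 for Rock2, 0.48 for Pqlc3 and -0.98 for Lpin1.

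**Figure D5:**
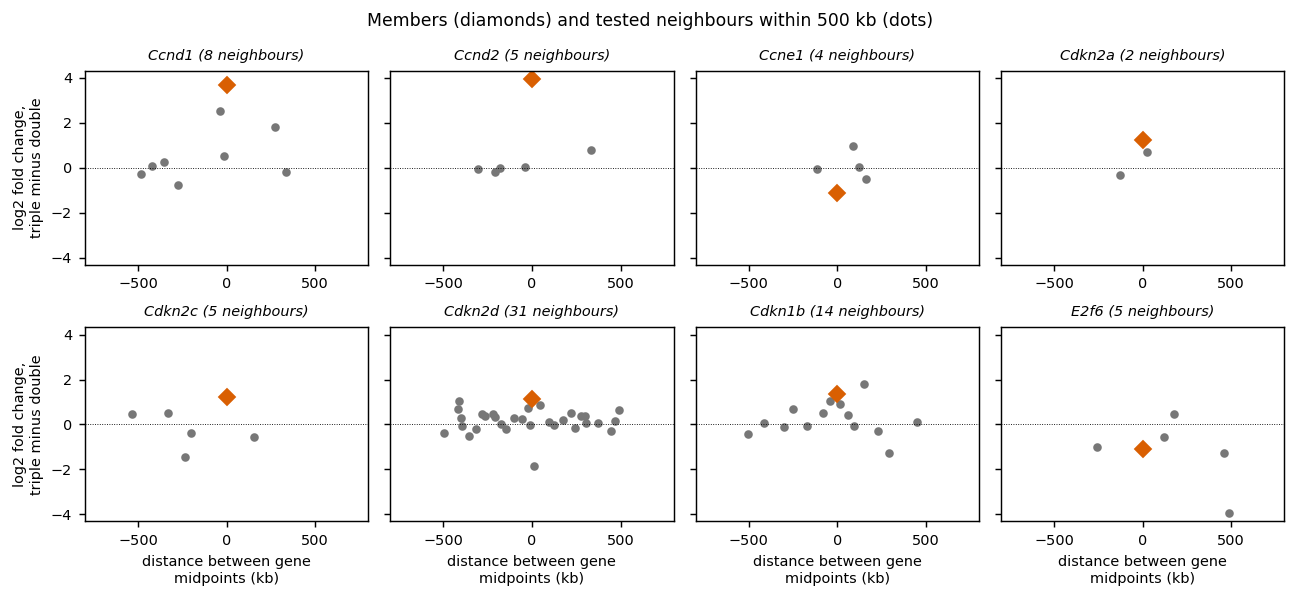
Log2 fold change of FPKM + 1 between triple-mutant and double-mutant tumors for 8 cell cycle genes (diamonds) and the tested genes within 500 kb of each (dots), against the distance between gene midpoints in kb. The diamonds of Ccnd1 and Ccnd2 stand above all of their neighbours, and that of E2f6 lies among its own.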

How the data were processed

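PolyA RNA of 4 mammary tumors was sequenced as 50-bp single-end reads from strand-marking libraries. Per the labels, the authors aligned reads to mm10 with TopHat2 2.0.10 and Bowtie 0.12.9 and estimated FPKM with Cufflinks 2.1.1, which the deposited tables hold for each tumor with the bounds of a confidence interval and a status. The read counts the authors tested with DESeq2 were not used here. Status was OK in all tumors for all 37 genes. Low FPKM values showed no plain steps of whole reads, so depth is unknown.

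The tables were joined on symbol and position. A gene was kept if 2 or more tumors reached 1 FPKM. The model was limma 3.58.1 (R 4.3.3; lmFit and eBayes, trend on) for log2(FPKM + 1), its contrast was the triple-mutant less the double-mutant mean, and p-values were adjusted after Benjamini and Hochberg over 12752 genes. The p-values, standard errors and intervals rest on the spread between 2 tumors per genotype. In eBayes the variance of each gene is moderated towards a trend over all genes tested. A gene was called separated where both tumors of one genotype exceeded both of the other. The script was tested on simulated data. All 37 genes are named. In each further list the separated genes of largest difference are named, at most 3 per direction, and of neighbours at most the nearest 3, with Gprc5a, Pdia6 and Atp6v1c2, and Hey1 and Lef1 among the lists, added after their values were seen. The genes, lists and tests were chosen with earlier results of these data known, and the marker lists serve only as measured levels. Coordinates count from 1 on mm10 (GRCm38). Python 3.11.15, pandas 2.3.3, numpy 2.4.6, scipy 1.17.1 and matplotlib 3.10.9 were used.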

Additional observations from a re-analysis of the deposited data

How the results depend on the processing

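Each alternative changed 1 choice: the pseudocount (0.1), the filter (none, or 5 FPKM), the scaling (TPM, quantile or median-of-ratios), the trend in limma, the status, the interval midpoint as value, or the tumors, with each left out. In all of them 0 of the 37 genes passed the threshold of limma. Over all genes tested, 6 passed with quantile normalization, 5 without the trend, 1 with the interval midpoint and 0 in the rest, for which the cause was not tested. With tumors left out, the separated genes numbered 13 to 21 on the triple-mutant side (21 without tumor 26043) and 10 to 16 on the double-mutant side (16 without tumor 26044), where 30.8% to 40.2% and 31.9% to 45.1% of all genes were separated, since fewer tumors separate more often. In the other settings they numbered 11 to 12 and 7 to 10, beside 19.6% to 23.0% and 19.5% to 25.6% of all genes. The filter of 5 FPKM left 32 of the 37 genes to be tested. With the interval midpoint Ccnd3, Ccne2, E2f5, E2f7 and Cdc25a lost their separation and Rbl2 and E2f4 gained one. Of 476 log2 fold changes recomputed, 457 kept their direction, and 27 of the 37 genes kept it throughout, Ccnd1 between 3.20 and 4.16 and Ccnd2 between 3.36 and 4.50. The direction turned with TPM for Cdk4 (-0.03), and with the interval midpoint for Ccnb2 (0.03), Cdk4 (-0.08) and Cks1b (0.02). It turned with a tumor left out for Ccna2 (-0.57 to 0.18), Ccnb1 (-0.71 to 0.11), Ccnb2 (-0.40 to 0.21), Cdk4 (-0.35 to 0.35), Cdk6 (-1.23 to 0.85), Cdkn1c (-0.48 to 2.93), E2f1 (-0.04 to 0.38), Cdc25c (-0.64 to 0.31), Skp2 (-0.62 to 0.07) and Cks1b (-0.52 to 0.45). A lone tumor left in a genotype was assumed to vary like the others. With neighbours within 1 Mb the median around Cdkn2c was 0.12 over 11 genes and that around E2f6 -0.69. No paired analysis was possible because the tumor numbers of the genotypes are not shared and the sources used here do not say which of the littermates share a litter. The depth behind low values, such as those of Cdk6, Ccne2 and E2f7, is unknown.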
